A study of Mus musculus with 9 samples.

Results

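The genes described here are 10 neuronal cytoskeleton genes, taken by name from the 21899 genes of the deposited table: Map1b, Map2, Mapt, Dcx, Stmn2, Gap43, Tubb3, Nefl, Nefm and Nefh. They were measured by RNA-seq of poly(A)-selected RNA in N2a cells (Neuro-2a, a mouse neuroblastoma line that is labelled as a neuroblast). The 9 libraries fell into 3 groups of 3, in which cells carried a lentiviral hairpin. The control hairpin, shlucif, is directed at luciferase, and shArf1-1 and shArf1-2 are directed at Arf1. No other treatment is given for any group, and the 6 libraries with either Arf1 hairpin are called Arf1-deficient below. The series was made to study how Arf1, a small GTPase of the Golgi, acts on lipid metabolism, and the comparison used here is whether the neuronal cytoskeleton transcripts differed between control and Arf1-deficient cells. A cell line of this kind is a dividing tumour line and not a neuron, and the labels do not say whether the libraries of a group came from separate cultures, so the p-values measure the spread between these libraries only.

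The cytoskeleton of a neuron is built from microtubules, which are polymers of alpha- and beta-tubulin, from neurofilaments, which are intermediate filaments, and from actin. Tubb3 encodes a beta-tubulin that is widely used as a neuronal marker. Microtubule-associated proteins bind along the polymer. In mature neurons Map2 is found mainly in dendrites and tau, the product of Mapt, mainly in axons, while Map1b and doublecortin (Dcx) are known for their high levels in young neurons that extend processes. Stmn2 encodes a stathmin that binds tubulin in growth cones, Gap43 a membrane protein of growth cones, and Nefl, Nefm and Nefh the light, medium and heavy neurofilament subunits.

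The 2 hairpins target separate stretches of the Arf1 coding sequence on the minus strand, and both targets are printed because every comparison rests on them. On GRCm38 the shArf1-1 target lies in exon 3 at chr11:59213222-59213242 and the shArf1-2 target in exon 2 at chr11:59213386-59213406. The target stems are as follows, 5′ to 3′.
shArf1-1: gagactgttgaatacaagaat
shArf1-2: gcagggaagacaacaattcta
Arf1 stood at 328, 316 and 328 FPKM (counts scaled to the listed gene length and the library total) with shlucif, at 130, 128 and 127 FPKM with shArf1-1 and at 166, 157 and 171 FPKM with shArf1-2. The groups did not overlap, and shArf1-1 left less Arf1 mRNA than shArf1-2. The longest run that a hairpin target shared with a transcript of the 10 genes was 11 bases, in Map1b with shArf1-1. The median over 12435 other genes was 8 bases, and 1.59% of them had a run at least as long. With shArf1-2 the longest run was 10 bases, in Map1b and Dcx, a length reached by 8.19% of the other genes. Whether such runs had a part in any change was not tested.

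Of the 10 genes, 7 were well counted in all 9 libraries, Dcx was near the limit of detection, and Nefl and Nefm were at or below it. The plot of levels by library shows the 8 genes that could be tested. With shlucif, Tubb3 had the highest level per length of the 10 genes, 410 ± 25.1 FPKM (SD, n = 3), which ranked 84 among the 21899 genes. It was followed by Map1b at 76.7 ± 4.89, Gap43 at 57.7 ± 1.21, Mapt at 49.2 ± 0.45, Stmn2 at 27.2 ± 1.22, Nefh at 16.4 ± 0.15 and Map2 at 4.97 ± 0.43 FPKM (SD, n = 3 each), and no neighbours in this order overlapped between libraries. With shArf1-1 Stmn2, Nefh and Mapt lay closer together, at 40.3 ± 0.49, 32.7 ± 0.14 and 32.8 ± 0.82 FPKM, and the libraries of Nefh and Mapt overlapped. With shArf1-2 the levels of Mapt, Stmn2 and Nefh were 36.9 ± 0.79, 33.1 ± 0.84 and 30.8 ± 2.65 FPKM, and the libraries of Stmn2 and Nefh overlapped.

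**Figure D1:**
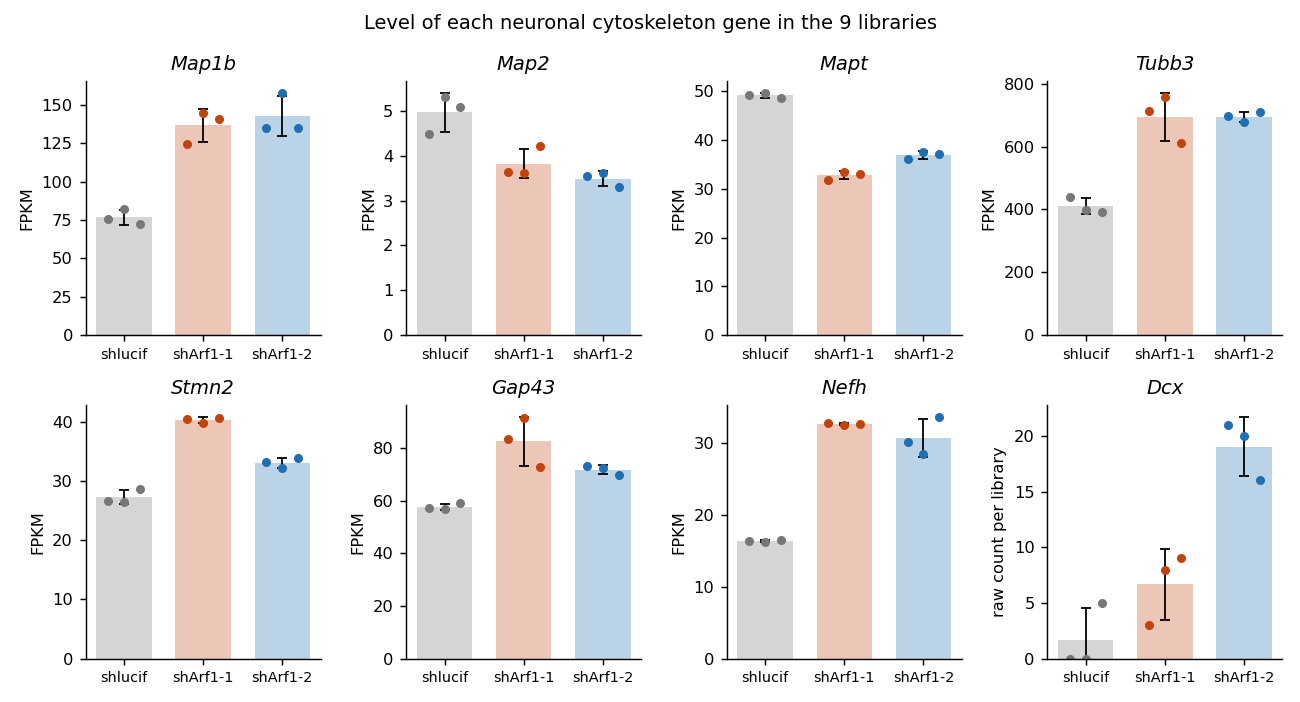
Level of 8 neuronal cytoskeleton genes in FPKM, or for Dcx in raw counts, with each point 1 library, bars at the mean and error bars of 1 SD (n = 3 per group). Map1b, Tubb3, Stmn2, Gap43 and Nefh lay higher in all 6 Arf1-deficient libraries than in any shlucif library, Map2 and Mapt lay lower, and Dcx did not exceed 21 counts.

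The 7 well-counted genes split into 5 that rose in Arf1-deficient cells and 2 that fell. Map1b, Tubb3, Nefh, Stmn2 and Gap43 rose by 1.28-fold to 1.86-fold, and Map2 and Mapt fell to 0.71 and 0.68 of the shlucif level. The median log2 fold change of the 7 genes was 0.37, and that of all 12448 tested genes was 0.00. Calls were common in this comparison, since 31.6% of all tested genes were called higher and 32.9% lower in the quasi-likelihood test of edgeR (Benjamini-Hochberg adjusted, threshold 0.05), so that a call by itself sets none of these genes apart. Likewise, the 6 Arf1-deficient libraries were entirely above the 3 shlucif libraries for 27.9% of tested genes, and entirely below them for 30.1%. By size of change the 7 genes were not among the most extreme, as 17% of all tested genes changed at least as much as Nefh and 51.3% at least as much as Gap43. In RNA from whole cultures, fewer cells of a type and less RNA per cell cannot be told apart.

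Microtubule-associated proteins moved in both directions. Map1b (ENSMUSG00000052727, GRCm38 chr13:99421446-99516540, minus strand) stood at 75.8, 82.0 and 72.3 FPKM with shlucif, at 125, 144 and 141 FPKM with shArf1-1 and at 135, 158 and 135 FPKM with shArf1-2. Every Arf1-deficient library lay above every shlucif library, and the 2 hairpins overlapped. Its log2 fold change was 0.80 (standard error 0.06, adjusted p = 1.08e-09 by edgeR's quasi-likelihood test), with 0.78 for shArf1-1 and 0.82 for shArf1-2.

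Mapt (ENSMUSG00000018411, chr11:104231390-104332090, plus strand), which encodes tau, went the other way. It was at 49.2, 49.6 and 48.7 FPKM with shlucif, at 31.8, 33.4 and 33.1 FPKM with shArf1-1 and at 36.1, 37.6 and 37.1 FPKM with shArf1-2. The 3 groups did not overlap with one another, and shArf1-2 lay between the control and shArf1-1. On the log2 scale Mapt fell by 0.56 (standard error 0.05, adjusted p = 2.52e-08, edgeR's quasi-likelihood test).

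Map2 (ENSMUSG00000015222, chr1:66175273-66442583, plus strand), the dendritic protein, was the least abundant of the 7 genes per length. It stood at 4.49, 5.32 and 5.09 FPKM with shlucif, at 3.64, 3.62 and 4.21 FPKM with shArf1-1 and at 3.54, 3.62 and 3.31 FPKM with shArf1-2. The control libraries were all higher than the Arf1-deficient ones, with the smallest gap between shlucif replicate 1 and shArf1-1 replicate 3. On the log2 scale Map2 fell by 0.50, with a standard error of 0.07 (adjusted p = 8.2e-06, edgeR's quasi-likelihood test).

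Because Map1b rose while Mapt and Map2 fell, the make-up of this class of transcripts shifted. The ratio of Map1b to Mapt was 1.56 ± 0.09 with shlucif, 4.17 ± 0.22 with shArf1-1 and 3.86 ± 0.29 with shArf1-2 (ratio of FPKM, mean ± SD, n = 3). Since FPKM divides by all exonic bases of a gene, such ratios compare groups and are not numbers of transcripts. The ratio of Map1b to Map2 went from 15.5 ± 1.35 to 35.9 ± 3.49 and 40.9 ± 2.71. Control and Arf1-deficient libraries did not overlap in either ratio. The ratio of Mapt to Map2 was 9.95 ± 0.88, 8.60 ± 0.69 and 10.6 ± 0.54 in the same order, with shArf1-2 overlapping the control and shArf1-1 below it.

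Dcx (ENSMUSG00000031285, chrX:143855842-143933311, minus strand) was counted 0, 0 and 5 times in the shlucif libraries, 3, 8 and 9 times with shArf1-1 and 21, 20 and 16 times with shArf1-2. All shArf1-2 libraries exceeded the others, while shlucif and shArf1-1 overlapped. Dcx passed the filter on low counts only through its shArf1-2 libraries, so its call (adjusted p = 0.00493, edgeR's quasi-likelihood test) supports nothing, and a fold change against libraries at 0 is not given. A gene at 3 counts or fewer in a library, or between 0.192 and 0.268 CPM (counts scaled to the library total), was treated as undetected.

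Tubb3 (ENSMUSG00000062380, chr8:123411424-123422015, plus strand) rose 1.62-fold. It stood at 439, 399 and 392 FPKM with shlucif, at 713, 759 and 611 FPKM with shArf1-1 and at 696, 679 and 709 FPKM with shArf1-2. Every Arf1-deficient library was above every control library, and the shArf1-1 libraries were the most spread out. The log2 fold change was 0.70 (standard error 0.06, adjusted p = 1.67e-08, edgeR's quasi-likelihood test), and the mean level ranked 29 among 21899 genes with shArf1-1 and 30 with shArf1-2.

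The other beta-tubulins did not move with Tubb3 as a group. Tubb5, the most abundant, fell from 1362 ± 32.3 FPKM with shlucif to 1118 ± 69.8 with shArf1-1 and 1139 ± 14.4 with shArf1-2 (SD, n = 3), and Tubb2b and Tubb6 fell by 0.37 and 0.46 on the log2 scale. Tubb4b rose, with a log2 fold change of 0.53 (adjusted p = 1.47e-07, edgeR's quasi-likelihood test), and Tubb2a did not pass the test (-0.06, adjusted p = 0.378). The summed beta-tubulin level was 2439 ± 91.8, 2510 ± 207 and 2567 ± 20.6 FPKM with shlucif, shArf1-1 and shArf1-2. The shlucif and shArf1-1 libraries overlapped in this sum, and the shArf1-2 libraries lay just above shlucif.

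Within this sum the share of Tubb3 was 17.2%, 16.8% and 16.4% in the shlucif libraries, 27.7%, 28.4% and 26.8% with shArf1-1 and 27.1%, 26.7% and 27.4% with shArf1-2. The share of Tubb5 went from 55.9% ± 0.82 to 44.6% ± 0.92 and 44.4% ± 0.38, and that of Tubb4b from 9.14% ± 0.28 to 13.1% ± 0.13 and 13.5% ± 0.20 (SD, n = 3). The shares of both hairpins lay together and apart from the control, as the plot of the beta-tubulin make-up shows. No 50-base stretch of Tubb3 or Tubb6 transcripts occurred in another gene, whereas 36.9% to 49.6% of those in Tubb2a, Tubb2b and Tubb4b did. The counts of these 3 genes are therefore uncertain, and so is their part in the sum and the shares.

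**Figure D2:**
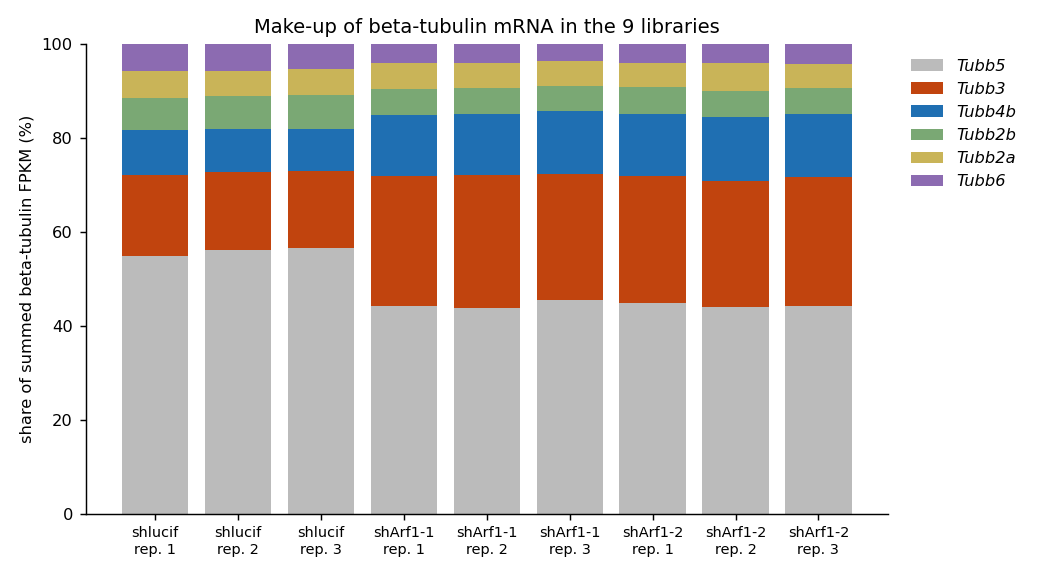
Share of each beta-tubulin gene in the summed beta-tubulin FPKM of each library, in percent, with 1 bar per library. Tubb3 (red) took 16.4% to 17.2% with shlucif and 26.7% to 28.4% in Arf1-deficient cells, while the share of Tubb5 (grey) was lower there. Tubb1 and Tubb4a, each at most 0.0102%, are not drawn.

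Of the growth cone genes, Stmn2 (ENSMUSG00000027500, chr3:8509360-8561606, plus strand) was at 26.7, 26.4 and 28.6 FPKM with shlucif, at 40.5, 39.7 and 40.7 FPKM with shArf1-1 and at 33.1, 32.2 and 33.9 FPKM with shArf1-2. No 2 groups overlapped, and shArf1-2 lay between the control and shArf1-1. Stmn2 rose by a log2 fold change of 0.37, with a standard error of 0.08 (adjusted p = 0.00103, edgeR's quasi-likelihood test).

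Gap43 (ENSMUSG00000047261, chr16:42248442-42340651, minus strand) was at 57.2, 56.9 and 59.1 FPKM with shlucif, at 83.5, 91.4 and 72.8 FPKM with shArf1-1 and at 73.1, 72.6 and 69.8 FPKM with shArf1-2. All Arf1-deficient libraries lay above the control, and the hairpins overlapped through shArf1-1 replicate 3. The log2 fold change was 0.35 (standard error 0.08, adjusted p = 0.000743, edgeR's quasi-likelihood test).

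Of Nefl, Nefm and Nefh, only Nefh, the heavy chain, was detected. Nefh (ENSMUSG00000020396, chr11:4938754-4948064, minus strand) was at 16.4, 16.2 and 16.5 FPKM with shlucif, at 32.9, 32.6 and 32.7 FPKM with shArf1-1 and at 30.2, 28.5 and 33.7 FPKM with shArf1-2. The groups with an Arf1 hairpin overlapped with each other and not with the control. Nefh had the largest rise of the 7 genes, with a log2 fold change of 0.89 and a standard error of 0.07 (adjusted p = 8.63e-10, edgeR's quasi-likelihood test).

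Nefm (ENSMUSG00000022054, chr14:68082590-68124846, minus strand) was counted 0 times in all 9 libraries. Nefl (ENSMUSG00000022055, chr14:68083863-68089095, plus strand) had 0, 0 and 2 counts with shlucif, 0 in each shArf1-1 library and 0, 1 and 2 with shArf1-2. Both genes were below the filter on low counts and were not tested. They overlap on opposite strands, with 1108 exonic bases in common, and whether counting used strand is not given in the sources used here. The light and medium subunits, with which the heavy chain assembles in neurons, were thus not detectable at this depth of 11182479 to 15594615 counts per library.

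Each hairpin alone gave the same calls. Against shlucif, Map1b, Tubb3, Nefh, Stmn2 and Gap43 were higher and Map2 and Mapt lower with shArf1-1, where 33.1% of all tested genes were called higher and 34.4% lower. The same held with shArf1-2, where 30.9% were called higher and 32.6% lower. Both comparisons share the shlucif libraries, so they are not independent. With shArf1-1 and shArf1-2 in turn, the log2 fold changes were 0.71 and 0.69 for Tubb3, 0.95 and 0.84 for Nefh, 0.51 and 0.21 for Stmn2 and 0.46 and 0.24 for Gap43, while Map2 fell by 0.43 and 0.58 and Mapt by 0.64 and 0.48. Every one of these had an adjusted p of at most 0.00212 by edgeR's quasi-likelihood test.

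Compared with each other, the hairpins differed for 3 of the 8 tested genes, against 6.98% of all tested genes called higher and 7.46% called lower with shArf1-2. Stmn2 was lower with shArf1-2 by a log2 difference of -0.30 (standard error 0.05, adjusted p = 0.000123, edgeR's quasi-likelihood test), Gap43 was lower by -0.22 (adjusted p = 0.0249), and Mapt was higher by 0.16 (adjusted p = 0.0279). Arf1 itself was higher with shArf1-2, with a log2 difference of 0.34 (adjusted p = 1.16e-05), and whether the depth of knockdown had a part in the 3 differences was not tested. The call for Mapt was lost without shArf1-1 replicate 1 or any 1 of the shArf1-2 libraries (adjusted p up to 0.13), and that for Gap43 also without shArf1-1 replicate 2 (adjusted p up to 0.178), whereas Stmn2 stayed at or below an adjusted p of 0.003.

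The remaining genes did not pass the test of the difference between hairpins. The 95% interval of the log2 difference ran from -0.08 to 0.17 for Map1b, from -0.15 to 0.12 for Tubb3, from -0.23 to 0.02 for Nefh and from -0.31 to -0.0034 for Map2 (adjusted p = 0.172, edgeR's quasi-likelihood test). For Map1b, Tubb3 and Nefh the intervals held 0. That of Map2 left out 0, but the test did not pass after adjustment over all genes.

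**Figure D3:**
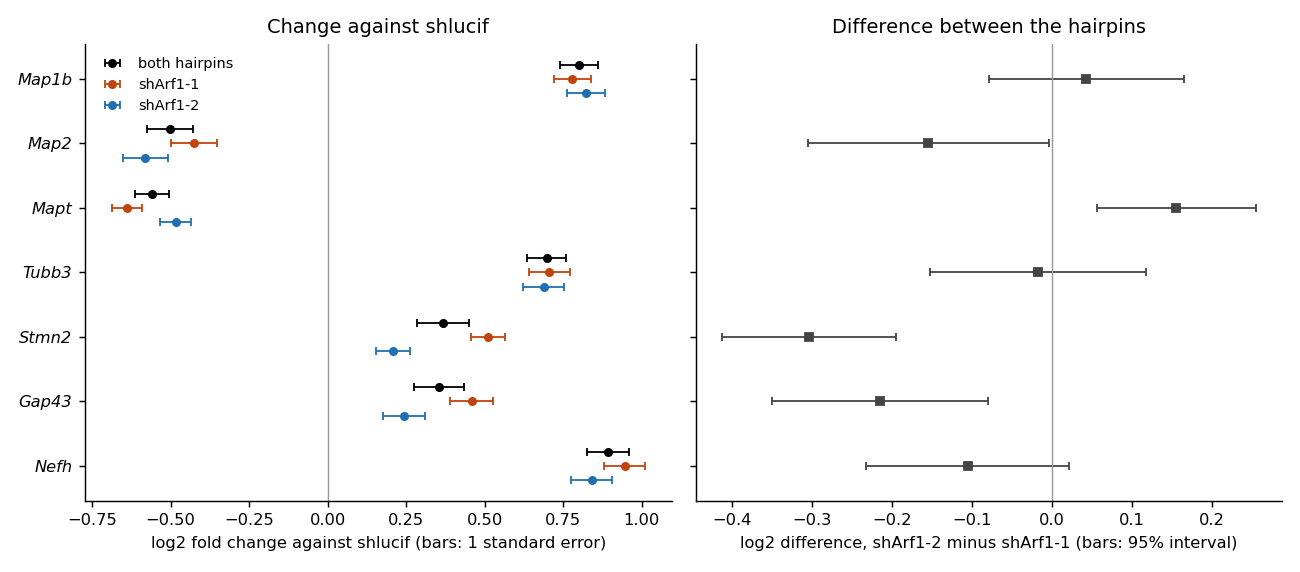
Left, log2 fold change of 7 neuronal cytoskeleton genes against shlucif for both hairpins together and each alone, with bars of 1 standard error. Right, log2 difference between shArf1-2 and shArf1-1 with its 95% interval, which lies apart from 0 for Mapt, Stmn2, Gap43 and, narrowly, Map2.

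Promoter sequence was at hand for Map1b, Map2, Dcx and Tubb3, and those of Map1b and Tubb3, which rose, and of Map2, which fell, are printed to set genes of opposite direction side by side. The windows come from RefSeq (GRCm38.p6) and hold the bases before the start site that also precede the first base GENCODE gives the gene. Capitals mark a match on either strand to a GC box, whose letters are GGGCGG. They also mark a match to a TATA box, searched for with the letters TATAAA. The last kind of match in capitals is the CCAAT box.
Map1b, chr13:99516603-99516852, minus strand: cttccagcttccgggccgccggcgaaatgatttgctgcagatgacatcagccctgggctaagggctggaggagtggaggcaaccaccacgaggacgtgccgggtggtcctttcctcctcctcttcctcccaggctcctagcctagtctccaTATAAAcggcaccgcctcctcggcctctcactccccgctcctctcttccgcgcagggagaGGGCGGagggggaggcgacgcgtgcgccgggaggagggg
Tubb3, chr8:123411303-123411423, plus strand: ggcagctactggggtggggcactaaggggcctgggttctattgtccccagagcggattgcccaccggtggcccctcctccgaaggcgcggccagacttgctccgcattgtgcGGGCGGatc
Map2, chr1:66175079-66175272, plus strand: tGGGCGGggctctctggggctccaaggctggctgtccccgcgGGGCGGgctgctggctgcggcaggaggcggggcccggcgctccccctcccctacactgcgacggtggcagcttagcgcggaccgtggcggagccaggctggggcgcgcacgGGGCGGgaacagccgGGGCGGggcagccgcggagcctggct
All 3 windows were rich in G and C, with 66.4% in Map1b, 67.8% in Tubb3 and 79.4% in Map2, and 98.5% of the 32544 promoters had less G and C than Map2 in a window of the same length. GGGCGG matched once in Map1b and once in Tubb3 and 4 times in Map2, and it is held by 33%, 13.1% and 23.8% of all promoters at those lengths. TATAAA was found in Map1b alone among the 3, as in 12.3% of promoters of that length. CCAAT was in none of the 3. RE1, the element bound by the repressor REST, was searched for in 2 pieces. The first, TTCAGCACC, matched none of the 3 windows, and is held by 0.301% of promoters over 250 bases. The second piece, with the letters GGACAGC, matched once, on the opposite strand of the Map2 window, as in 4.17% of promoters of that length. CANNTG (an E-box) matched once in Map1b, as in 66.2% of promoters. These matches are descriptions of letters, and no binding was measured.

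To place the 10 genes in their pathway, 9 lists of related genes were counted, which hold 153 genes, of which 141 were tested. In Arf1-deficient cells 64 of the 141 rose and 40 fell, and their median log2 fold change was 0.11. These counts, and those of each list, stand beside the 31.6% of all tested genes called higher and the 32.9% called lower, and no list was tested against that background. Both directions occurred in 8 of the 9 lists, as the plot of the lists shows. Values in the next paragraphs are log2 fold changes in Arf1-deficient cells against shlucif, and rose or fell means past the threshold of edgeR's quasi-likelihood test.

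Tubulins were divided, with 5 of 13 tested genes higher, 4 lower and a median of -0.04. The alpha-tubulin Tuba1a rose by 0.60, Tuba1b by 0.36 and Tuba1c by 0.26, while Tuba8 fell by 0.44. The summed alpha-tubulin level was 825 ± 25.4 FPKM with shlucif, 1141 ± 72.2 with shArf1-1 and 1191 ± 24.2 with shArf1-2, without overlap between control and Arf1-deficient libraries. Between 52.7% and 75.5% of 50-base stretches of Tuba1a, Tuba1b and Tuba1c occur in other genes, which include genes beyond these 3. Their single levels and the alpha-tubulin sum are therefore uncertain. Of the gamma-tubulins, which nucleate microtubules, Tubg1 rose by 0.13, a call that was lost without shlucif replicate 2 (0.12, adjusted p = 0.0779), and Tubg2 did not pass the test (-0.04, adjusted p = 0.768), nor did Tubd1 (0.11) or Tube1 (-0.22).

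Of 23 other microtubule-associated proteins, 9 rose, 8 fell and the median was 0.02. The plus-end protein Clasp1 rose by 0.84, the doublecortin-like kinase Dclk1 by 0.82 and Map6d1 by 0.67, and the tubulin polymerization promoting protein Tppp fell to 0.44 of a low shlucif level of 1.05 ± 0.16 FPKM. Map1a and Map1s, the relatives of Map1b, fell by 0.28 each and the widely expressed Map4 by 0.49. These 3 were named after their values were seen.

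Among 7 other stathmins and collapsin response mediators, which bind tubulin, 4 rose and none fell, with a median of 0.12. Dpysl5 rose by 0.43, Dpysl3 by 0.40, Stmn1 by 0.36 and Stmn3 by 0.12, the last of which lost its call under most alternatives. Stmn4 (0.11, adjusted p = 0.42), Crmp1 (0.03) and Dpysl2 (0.05) did not pass the test. Like Stmn2, Stmn4 was lower with shArf1-2 than with shArf1-1, by a log2 difference of -0.43 (adjusted p = 0.000167).

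Of 18 growth cone membrane and actin genes, 8 rose and 5 fell, with a median of 0.06. The adhesion molecule Ncam1 rose by 0.88 and the protein kinase C substrate Marcks by 0.64. Tmsb4x, which binds actin monomers, fell by 1.47, and Cotl1, which binds actin filaments, fell by 0.68.

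Of 9 tested intermediate filament genes other than Nefl, Nefm and Nefh, 3 rose and 6 fell, with a median of -0.38. Ina, which encodes the neuronal filament alpha-internexin, was the highest, and went from 13.8 ± 0.54 FPKM with shlucif to 43.8 ± 2.09 with shArf1-1 and 47.8 ± 0.23 with shArf1-2, a 3.17-fold rise (adjusted p = 6.16e-14, edgeR's quasi-likelihood test). The nuclear lamins Lmnb1 and Lmnb2 rose by 0.25 and 0.34. Of the filaments typical of non-neuronal cells, Des fell by 1.75, Synm fell by 1.12 and Vim fell by 1.00, and the lamin gene Lmna fell by 1.14. Peripherin (Prph), the filament of peripheral neurons, was the most abundant at 868 ± 30.8 FPKM with shlucif and fell by 0.38, and Nes, a filament of neural precursors, fell by 0.16. The call of Nes was lost under library size scaling (adjusted p = 0.149), under both limma settings (0.132 and 0.131) and without shlucif replicate 1 or 2 (0.0691 and 0.0636). Gfap was not tested.

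**Figure D4:**
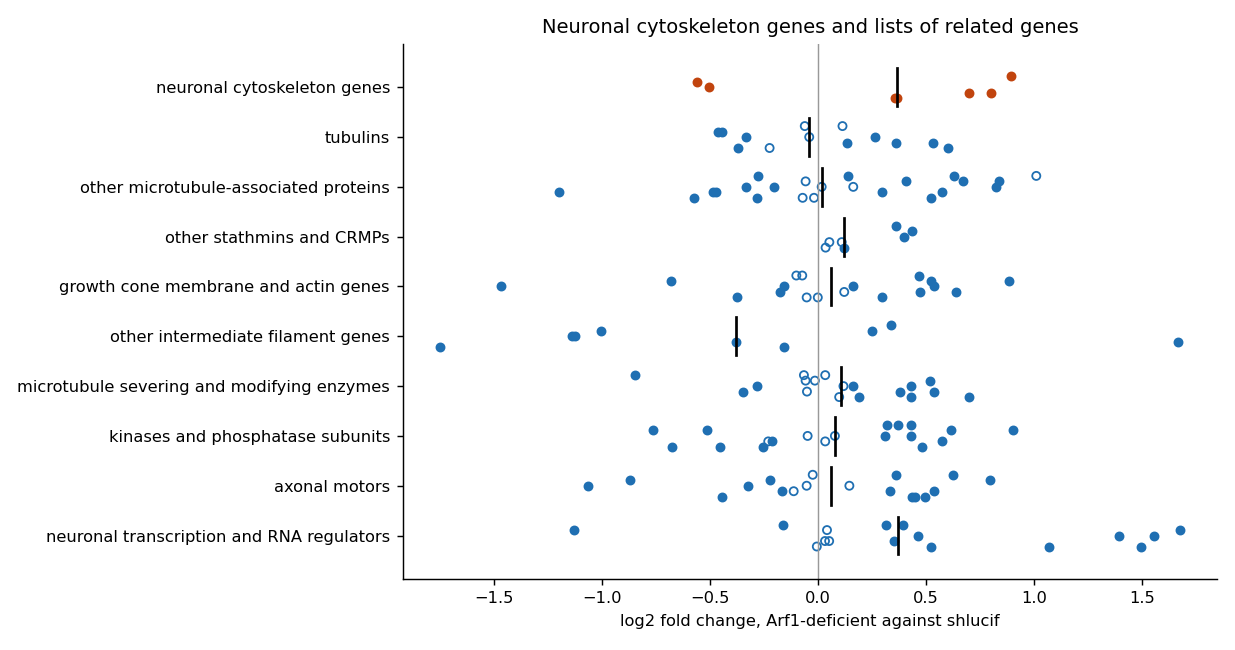
Log2 fold change in Arf1-deficient against shlucif cells for the 7 well-counted neuronal cytoskeleton genes (red) and for the tested genes of 9 related lists (blue), 1 point per gene. Filled points passed edgeR's quasi-likelihood test at an adjusted p under 0.05, open points did not, black lines are medians, and points are spread vertically only to be told apart.

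Enzymes that cut or modify microtubules had 8 of 18 genes higher and 3 lower, with a median of 0.11. The severing enzymes Spast and Fign rose by 0.70 and 0.52, the deglutamylase Agtpbp1 by 0.53, and the deacetylase Sirt2 fell by 0.85. Of 19 tested kinases and phosphatase subunits that act on tau and neurofilaments, 9 rose and 6 fell, with a median of 0.08. The JNK kinases went in both directions, as Mapk10 rose by 0.90 and Mapk8 by 0.43, and Mapk9 fell by 0.68. The tau kinase Mark4 fell by 0.76, while Mark2 and Mark3 of the same family rose by 0.57 and 0.43. Gsk3a, Gsk3b and Cdk5 did not pass the test. Mapk8, Mark2, Mark3, Gsk3a, Gsk3b and Cdk5 were named after their values were seen. The phosphatase subunit Ppp2r2c rose by 0.61.

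Axonal motors had 8 of 18 tested genes higher, 6 lower and a median of 0.06. The kinesin heavy chains Kif5a and Kif5b rose by 0.80 and 0.63, and Kif1c and Kif21b fell by 1.06 and 0.87. Neuronal transcription and RNA regulators had 10 of 16 tested genes higher, 2 lower and a median of 0.37. Insm1, a zinc finger factor of neuroendocrine cells, rose by 1.68, the splicing factor Nova1 by 1.56, the zinc finger factor Myt1 by 1.49 and the REST corepressor Rcor2 by 1.39. Rest itself, which was named after its value was seen, fell by 1.13 (adjusted p = 1.48e-08, edgeR's quasi-likelihood test). The level of Myt1 was 5.68 ± 0.21 FPKM with shlucif, 17.6 ± 0.56 with shArf1-1 and 15.8 ± 0.66 with shArf1-2 (SD, n = 3).

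The genes whose log2 CPM followed that of Tubb3, the gene of highest level among the 10, most closely over the 9 libraries were Hdac1 (Pearson's r = 0.992), Tgfbrap1 (0.991) and Asic1 (0.991), out of 10235 genes. The 9 libraries fall into 3 groups, which all such correlations share, so the values are a description without a p.

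Markers of cell types were counted in the same libraries. Of 15 tested markers of neuroblasts and the sympathetic lineage, the lineage in which neuroblastoma arises, 13 rose and none fell in Arf1-deficient cells, with a median log2 fold change of 0.56, where 31.6% of all tested genes were called higher and 32.9% lower. The enzyme gene Th, at 0.43 ± 0.01 FPKM with shlucif, was 1 of the 2 that did not pass the test. The hairpins differed in these markers, as 8 of the 15 were lower and 1 higher with shArf1-2 than with shArf1-1. Of all tested genes, 7.46% were called lower and 6.98% higher in that comparison. All 15 tested of 18 macrophage and microglia markers fell. They passed the filter on low counts only through the shlucif libraries, so this direction was fixed in advance and the count of falls supports nothing. The summed level of the 18 markers was 2326 to 2723 CPM in the shlucif libraries and 1.52 to 2.50 CPM in the Arf1-deficient ones. In shlucif libraries 13 of the 18 had at least 20 counts in each. Of the 21899 genes, 185 reached 20 counts or more in each of the shlucif libraries and at most 3 in each Arf1-deficient one. Genes counted only in Arf1-deficient libraries were not tallied. Of 4 tested fibroblast markers 2 fell, and of 2 tested glial markers 1 fell.

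These markers moved with the same contrast as every change above, including the falls of Vim, Lmna, Tmsb4x and Cotl1, which macrophages also express, and their part in the results was not tested. When the 185 genes and the macrophage markers were left out of the fit, an alternative chosen after the data were seen, the log2 fold changes were 0.79 for Map1b, 0.69 for Tubb3, 0.89 for Nefh, 0.36 for Stmn2 and 0.35 for Gap43, and Map2 and Mapt fell by 0.51 and 0.57. Leaving genes out changes only the scaling and the adjustment, and any RNA of other cells stays in the counts of the 7 genes, so these values do not bear on the part of the macrophage markers.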

How the data were processed

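RNA-seq of 9 N2a libraries was used, 3 each with shlucif, shArf1-1 and shArf1-2. The authors deposited 1 table that gives, per gene and library, a raw read count and an FPKM value. The deposited FPKM was recomputed, to a relative difference of at most 1.89e-07, from the count, the listed gene length (in bases, as deposited) and the library total. The submitters' processing notes name mm10. The aligner, the counting tool and the use of strand are not given in the sources used here. Columns named shArf2 were read as shArf1-2. Only 565 of 21846 identifiers had the same start in the table as in the GENCODE annotation of GRCm38, so coordinates were taken from that annotation by identifier, and 9 of the 10 listed lengths equalled its exonic bases. There were 8 rows that named no gene, which were left out.

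Counts were fitted with edgeR 4.0.16 in R 4.3.3 (filterByExpr, TMM, robust glmQLFit, glmQLFTest), 6 Arf1-deficient against 3 shlucif libraries, and in a fit of 3 groups for each hairpin and their difference. P-values were Benjamini-Hochberg adjusted over 12448 tested genes, standard errors came from the log2 fold change and F, and 95% intervals from the t distribution of the fit. Totals ran from 11182479 to 15594615 counts per library, so genes at or under 3 counts were treated as undetected, a floor that covers counting error only. The tests were checked on simulated counts. Alternatives were DESeq2 1.42.0, limma 3.58.1 on log2(FPKM + 1) and log2(FPKM + 0.1), library size and upper quartile scaling, other filters, a replicate block, the average of the hairpin contrasts, and leaving out each library.

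The 10 genes and the lists were chosen with earlier results of these data known. Named from each list were up to 4 genes with the largest change past the threshold and a mean of 5 CPM or more in 1 of the groups, and relatives of the 10 genes among tubulins, stathmins and intermediate filaments. Also named were the 3 genes most correlated with Tubb3 and the cell type markers that bear on a result.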

Additional observations from a re-analysis of the deposited data

Results flagged for a closer look

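Among the 6 Arf1-deficient libraries, shArf1-1 replicate 3 stood apart from the others for Map2, at 4.208 FPKM. Its gap to its neighbour was just over the limit of Dixon's test, which flags about 1 in 20 groups by chance. The test took the libraries of both hairpins together, though it assumes a single population. It was run on every gene described here but Nefm, without adjustment for their number.

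The change against shlucif differed between the hairpins for 3 genes by edgeR's quasi-likelihood test of the difference (shArf1-2 minus shArf1-1): by 0.1553 on the log2 scale for Mapt (adjusted p = 0.0279), by -0.3033 for Stmn2 (adjusted p = 0.000123) and by -0.2153 for Gap43 (adjusted p = 0.0249).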

How the results depend on the processing

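The changes of single genes, 85 in all, were recomputed under the alternatives, which gave 1575 values, of which 1518 kept their direction and side of the threshold, 37 lost the call, 2 gained a call and 18 changed sign. The 7 well-counted genes kept direction and call against shlucif under every alternative, for both hairpins together and for each alone. Dcx lost its call with both hairpins under limma on log2(FPKM + 1) (adjusted p = 0.109), and with shArf1-1 under both limma settings and without shlucif replicate 1 or 2 or shArf1-1 replicate 2 or 3. It could not be tested with at least 10 counts in every library, nor without an shArf1-2 library, since it then missed the filter.

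Between the hairpins, the genes lower with shArf1-2 numbered 1 in place of 2 under both limma settings, and all genes lower numbered 601 in place of 929 under limma on log2(FPKM + 0.1). Leaving out 1 library gave 0 to 1 higher, 1 to 2 lower and 581 to 988 of all genes lower, with the lowest value without shArf1-2 replicate 2. Mapt lost its call without shArf1-1 replicate 1 or any of the shArf1-2 libraries, and Gap43 without shArf1-1 replicate 1 or 2 or any of the shArf1-2 libraries, and under both limma settings. 

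Signs changed only for values near 0 that had not passed the test. Tubb2a became 0.00192 under library size scaling and 0.001245 and 0.001244 under limma. Tubg2 became 0.02273 under library size scaling, 0.01328 and 0.01343 under limma, and lay between -0.08988 and 0.02249 with 1 library left out (0.01035 without shlucif replicate 1, 0.02249 without shArf1-1 replicate 3). The hairpin difference of Tubb3 became 0.0009138 under library size scaling, 6.846e-06 under upper quartile scaling, 0.006213 and 0.006229 under limma, and lay between -0.1038 and 0.05742 with 1 library left out, above 0 without shArf1-1 replicate 1 or 2 or shArf1-2 replicate 2. That of Map1b lay between -0.02625 and 0.0907, below 0 without shArf1-1 replicate 1 or shArf1-2 replicate 2, and Dpysl2 lay between -0.00423 and 0.08824, below 0 without shArf1-1 replicate 2. The cause was not tested.

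Replicate numbers did not pair the libraries, as deviations of the 9 same-numbered pairs correlated between -0.08 and 0.09. With the replicate block, the Arf1-deficient cells had 3812 genes higher and 3996 lower, in place of 3933 and 4094, and no call of the 10 genes changed, while Stmn3 lost its call (adjusted p = 0.0559). Nes, Stmn3 and Tubg1 also lost their calls under some alternatives, and Tube1 gained one under the average of the hairpin contrasts (adjusted p = 0.0394) and without shArf1-2 replicate 1 (adjusted p = 0.0092). Dcx, Nefl and Nefm were near or below the limit of detection, and the part of depth in this was not tested.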
